A study of Mus musculus with 2 samples.

Results

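RNA-seq reads of 35 genes of liver endothelial cells were compared between 1 library of mature hepatocytes (MHs) and 1 library of small hepatocytes (SHs). The genes were given by name, as markers of the endothelium of liver sinusoids and of other vessels, and all 35 were found among the 43280 gene symbols counted in both libraries. The rule that names them uses no measured value, but the genes were chosen with earlier results of these data known. Both cell fractions came from untreated C57BL6 mice, which the labels give as 20 weeks old and as the same mice for both fractions. The study's methods describe several adult animals, of a younger age than the labels give, and do not say whether their RNA was pooled. MHs were pelleted at low speed after collagenase perfusion and were cleared of dead cells on Percoll, without sorting. SHs were collected from the supernatant, were cleared on Percoll too and were then sorted by FACS as cells without CD31, CD45 and EpCAM that carried ICAM-1. CD31 is encoded by Pecam1, 1 of the 35 genes, so the sort itself selected against endothelial cells in SHs only.

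Endothelial cells line the blood vessels. In liver sinusoids they are fenestrated, lack a continuous basement membrane and take up waste molecules from blood through scavenger receptors, whereas the endothelium of portal and central veins and arteries is continuous. Growth and quiescence of vessels are controlled by VEGF acting on the receptors KDR, FLT1 and FLT4 and by angiopoietins acting on TEK. ETS factors such as ERG and FLI1 bind a GGAA core in many endothelial promoters, and GATA4 is a factor of sinusoidal endothelium.

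The libraries held 16979136 counted reads in MHs against 42356444 in SHs, a depth ratio of 2.49. Reads were scaled per 1000000 counted reads of the library (RPM), and levels of different genes were compared after division by exon length (RPKM). Shares of the summed reads were not divided by length, so they are no order of levels between genes. The log2 ratio is SHs over MHs with 0.5 reads added to each count, and its interval is an exact 95% interval for counting error alone. With 1 library per fraction there was no replicate, so no test between SHs and MHs could be made, and reads carried no molecular identifiers. A gene with 0 reads in SHs is given its fold against a floor of 3 reads, which leaves out the counting error of MHs, and the near end of its interval, which includes it. The floor was 0.0708 RPM in SHs and 0.177 RPM in MHs. For a gene with 1 to 3 reads, only the ends of the interval are given. The 12 markers of hepatocytes, such as Alb and Cps1, had a summed level of 92490 RPM in MHs against 96807 RPM in SHs.

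The endothelial genes were lower in SHs than in MHs. Together they had 4282 MH reads and 684 SH reads, although SHs were sequenced more deeply, which were 252 and 16.1 RPM. The summed level was 15.6-fold lower in SHs, with an interval of 14.4 to 17.0. Reads of the 35 genes were scarce in both libraries, at 0.0252% of counted reads in MHs and 0.00161% in SHs. The raw number of reads was smaller in SHs for 34 of the 35 genes. The exception was Cyyr1. The 95% interval of the ratio lay under 0 for the same 34 genes and over 0 for Cyyr1. The shares of all genes that met these conditions are not given here, and those for a rule with a fold threshold follow.

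At least 10 reads over both libraries were present for 33 genes, and Emcn and Sox18, with 7 each, did not reach this. Of the 33 genes, 32 were 2-fold or more lower in SHs with an interval under 0, and 1 was at least 2-fold higher with an interval over 0. Among all 15521 genes with at least 10 reads, 4.46% were lower and 2% were higher by the same rule. Among the 8009 of these genes with no more than 457 reads, the number for the member with the most, 8.12% were lower. At least 4-fold lower were 30 members, against 2.52% of all genes. Of the 19 members with 100 or more reads in total, 18 were lower by 2-fold or more, against 1.17% of the 10941 genes with as many reads. Most members reached the minimum through MHs, since 33 had 10 reads in that library and only 16 had them in SHs. The median log2 ratio over all 35 genes, without a minimum, was -4.74. It was -4.66 when genes with 3 or fewer reads in SHs were set to 3 reads and no reads were added to any count. The median of all genes with at least 10 reads was 0.02. In bulk RNA, fewer endothelial cells and less RNA per endothelial cell cannot be told apart, and here the sort against CD31 cannot be told apart from the fraction of hepatocytes.

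**Figure D1:**
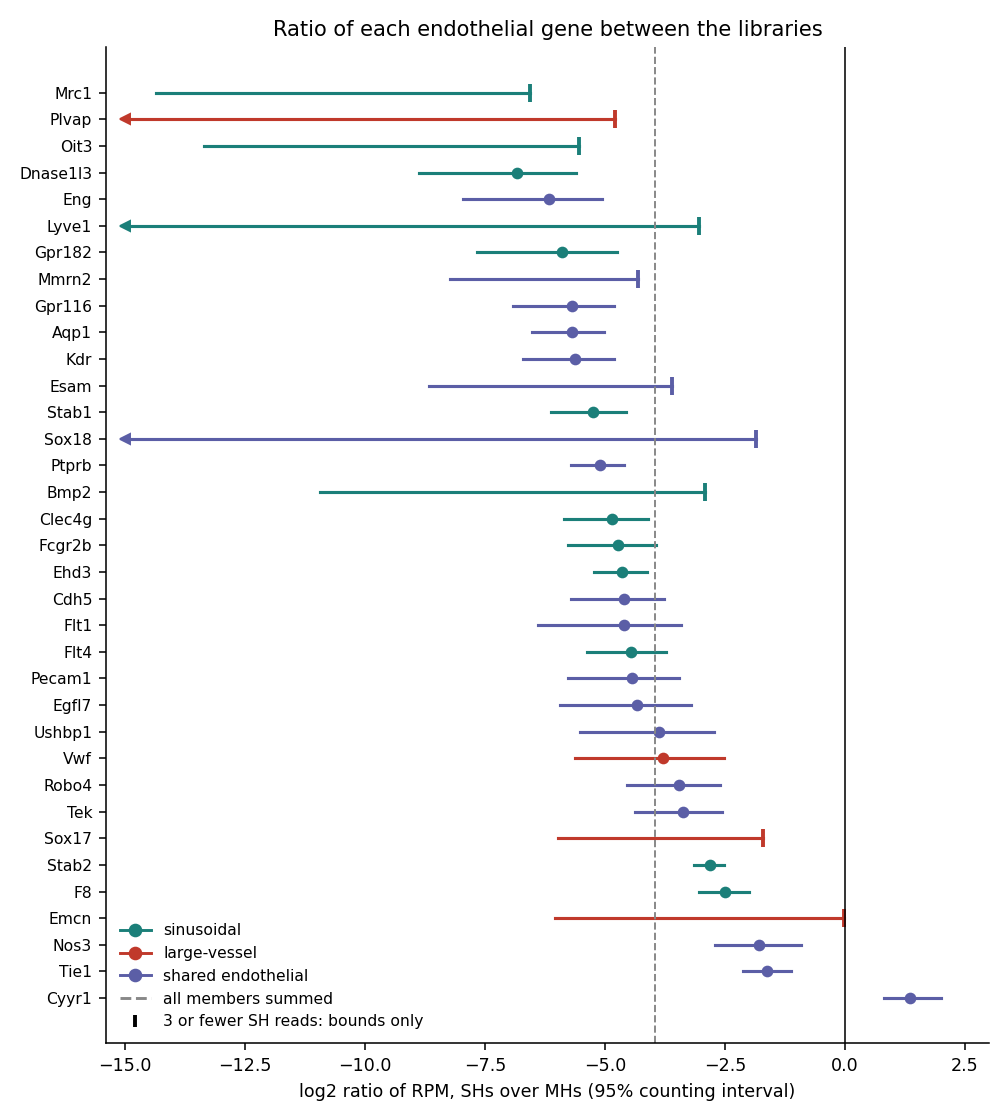
Log2 ratio of RPM in SHs over MHs for each of the 35 genes, in order, with the exact 95% counting interval as a line and the class as colour. Genes with 3 or fewer SH reads have no point, a tick at the upper end of the interval and an arrow where SHs had 0 reads. The dashed line is the ratio of the summed reads, -3.97. Cyyr1 is the 1 gene to the right of 0, and the whole intervals of Tie1, Nos3, F8 and Stab2 also lie to the right of the dashed line.

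The scavenger and lectin receptors, by which sinusoidal endothelium clears blood, were all lower in SHs. Mrc1, the mannose receptor, had 213 reads in MHs against 1 in SHs, with an interval of -14.36 to -6.56. The upper end of its interval was the lowest of the 35 genes, and macrophages also express it. Stab1 (chromosome 14, 31139013 to 31168641 of mm10), a scavenger receptor that macrophages share, had 252 reads in MHs against 16 in SHs. Its levels of 14.8 and 0.378 RPM gave a log2 ratio of -5.25 (-6.13 to -4.57). Stab2 (chromosome 10, 86841198 to 87008025), a receptor for hyaluronan and the usual marker of sinusoidal endothelium, had 338 reads in MHs against 119 in SHs. Its levels were 19.9 and 2.81 RPM, a log2 ratio of -2.82 (-3.14 to -2.52). The stabilin genes differed from each other by more than counting error, and the SH to MH ratio of Stab2 was 5.53 times that of Stab1 (95% interval 3.17 to 10.3). Exons of Stab2 share 141 bases with Gm16268 on the opposite strand, which had 2 reads in MHs against 11 in SHs. Those of Stab1 share 112 bases with Nt5dc2 on the opposite strand, which had 55 and 80. Clec4g, a sinusoidal C-type lectin, had 157 reads in MHs against 13 in SHs, and Fcgr2b, the inhibitory receptor for IgG, had 133 and 12. Their log2 ratios were -4.86 and -4.74. Lyve1, a hyaluronan receptor of sinusoidal and lymphatic endothelium, had 14 reads in MHs against 0 in SHs, at least 11.6-fold lower against the floor of 3 reads and 8.28-fold lower at the near end of its interval. The 6 receptors together had 65.2 RPM in MHs against 3.80 in SHs.

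Among the other genes of sinusoidal endothelium, Dnase1l3, a secreted DNase, had 204 reads in MHs against 4 in SHs. Its log2 ratio of -6.82 (-8.88 to -5.61) was the lowest of the genes with more than 3 reads in SHs. Oit3 had 106 reads in MHs against 1 in SHs, with an interval of -13.36 to -5.54. Gpr182, an atypical chemokine receptor, had 130 and 5 reads, and Ehd3, an ATPase of endocytic recycling, had 324 and 32. Bmp2, a ligand from endothelium that acts on hepatocyte iron sensing, had 19 reads in MHs against 1 in SHs. F8 (chromosome X, 75172715 to 75382615), which encodes coagulation factor VIII, stood apart, with 105 reads in MHs against 46 in SHs. Its levels were 6.18 and 1.09 RPM, a log2 ratio of -2.50 and a level 5.66-fold lower in SHs (3.99 to 8.24), and its interval did not overlap those of Ehd3, Gpr182, Oit3 or Dnase1l3. Fundc2, Gm6039 and Gm8522 overlap the span of F8 but share no exon bases with it. They had 41 and 136, 19 and 27, and 11 and 24 reads. Dnase1l3, Oit3, Gpr182, Ehd3, Bmp2 and F8 together had 52.3 RPM in MHs against 2.10 in SHs.

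The receptors of vascular growth factors were lower in SHs as well, by unequal amounts. Kdr (chromosome 5, 75932827 to 75978458), the main VEGF receptor, had 226 reads in MHs against 11 in SHs, for a log2 ratio of -5.62 (-6.70 to -4.81). Flt4, the receptor for VEGF-C, had 137 and 15 reads, and Flt1, a receptor that binds VEGF without strong signaling, had 53 and 5. Eng, a co-receptor for BMP9 and TGF-β, had 159 reads in MHs against 5 in SHs, for a log2 ratio of -6.18 (-7.95 to -5.06). Its exons share 61 bases with those of Fpgs on the opposite strand, which had 2420 and 6069 reads. The angiopoietin receptor Tek had 60 reads in MHs against 14 in SHs, which were 3.53 and 0.331 RPM. Tie1 (chromosome 4, 118471191 to 118490061), the related orphan receptor, had 78 reads in MHs against 63 in SHs, which were 4.59 and 1.49 RPM. Its log2 ratio was -1.62 (-2.13 to -1.13). The SH to MH ratio of Tie1 was 3.44 times that of Tek (1.71 to 7.31). That of Flt4 was 2.24 times that of Kdr, with an interval of 0.933 to 5.57 that included 1. No gene of another locus overlapped Tie1, Tek, Kdr, Flt1 or Flt4 in the annotation.

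The genes of junctions, surface and matrix had a summed level 30.1-fold lower in SHs (23.5 to 39.2). Ptprb, a phosphatase that acts on VE-cadherin and TEK, had the most reads of all members in MHs, 422, and 30 in SHs, for a log2 ratio of -5.11 (-5.72 to -4.60). Cdh5, which encodes VE-cadherin, had 112 and 11 reads, a log2 ratio of -4.61. Pecam1, the gene of the sorting marker CD31, had 4.30 RPM in MHs against 0.189 in SHs, for a log2 ratio of -4.43 (-5.77 to -3.45). This was near the median of the 35 genes. Robo4, a guidance receptor of vessels, had 55 and 12 reads, a log2 ratio of -3.47. Mmrn2, a matrix glycoprotein, had 73 reads in MHs against 3 in SHs, and Esam, an adhesion molecule of endothelial tight junctions, had 38 and 2. Plvap, the protein of the diaphragms of fenestrae and caveolae, had 43 reads in MHs against 0 in SHs, at least 35.8-fold lower against the floor and 27.8-fold at the near end of its interval. Emcn, a sialomucin, had only 5 reads in MHs against 2 in SHs, with an interval of -6.03 to -0.03. Of these 8 genes, 7 had at least 10 reads, and all 7 were lower by 2-fold or more, against 4.46% of all genes with as many reads. In SHs, 4 of the 8 had 3 or fewer reads.

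The transcription factors, enzymes and secreted proteins had few reads. Sox17 had 14 reads in MHs against 3 in SHs, and Sox18 had 7 and 0. Vwf, the von Willebrand factor of larger vessels, had 30 and 5 reads, and Egfl7, a secreted protein of angiogenic vessels, had 52 and 6. The exons of Egfl7 overlap those of Agpat2 on the opposite strand by 64 bases, and Agpat2 had 3442 and 8563 reads. Nos3 (chromosome 5, 24364810 to 24384474), the endothelial nitric oxide synthase, had 28 reads in MHs against 20 in SHs, for a log2 ratio of -1.79 (-2.71 to -0.92). It overlaps 2 genes on the opposite strand. They were Gm15587, with 0 reads in MHs against 3 in SHs over 1040 shared exon bases, and Atg9b, with 5 and 7 reads over 294 bases. The reads of the overlapping genes were fewer than those of Nos3 in both libraries.

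Of the remaining members, Aqp1, a water channel of endothelium and of cholangiocytes, had 359 reads in MHs against 17 in SHs, for a log2 ratio of -5.68 (-6.51 to -5.02). Gpr116, an adhesion receptor now named Adgrf5, had 196 and 9 reads, and Ushbp1 had 38 and 6. Cyyr1 (chromosome 16, 85421533 to 85553397), which encodes a small membrane protein rich in cysteine and tyrosine, went the other way. It had 29 reads in MHs against 187 in SHs, which were 1.71 and 4.41 RPM, a log2 ratio of 1.35 (0.80 to 1.99). An exon of the pseudogene Gm2541 on the same strand shares 165 bases with Cyyr1. Gm2541 itself had 13 reads in MHs against 36 in SHs, fewer than Cyyr1 in both. Whether reads of Cyyr1 lie on its own exons cannot be read from counts per gene.

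**Figure D2:**
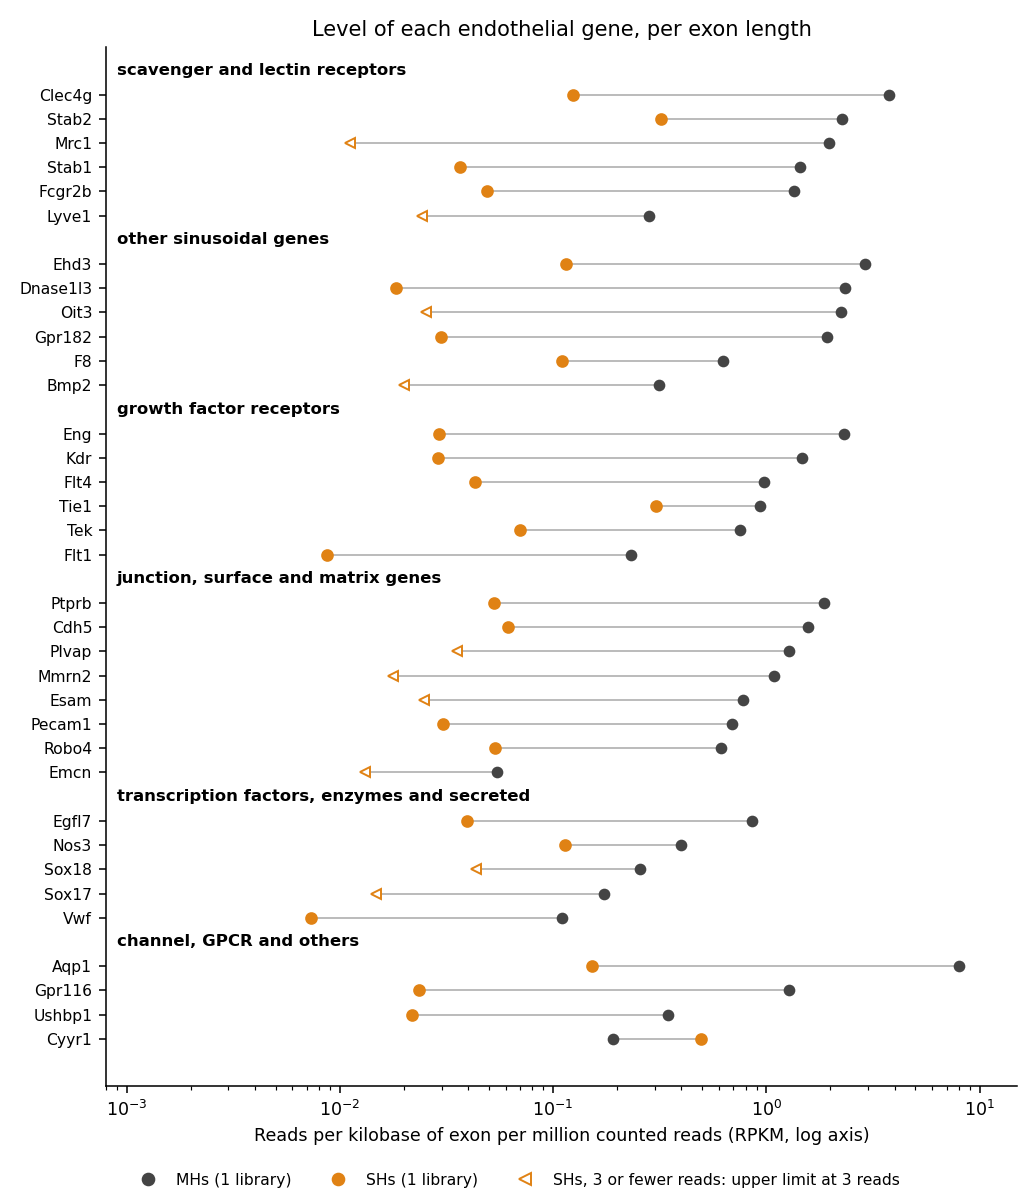
Level of each gene in RPKM, on a log axis, in MHs (dark) and SHs (orange), grouped by role and ordered by the level in MHs. Open triangles are upper limits for genes with 3 or fewer reads in SHs, set at 3 reads. In MHs the levels run from 0.0544 for Emcn to 8.05 for Aqp1, and in SHs Cyyr1 is highest, at 0.496.

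Per exon length, the order of the genes was not the same in the libraries. In MHs, Aqp1 was highest at 8.05 RPKM, followed by Clec4g at 3.76, Ehd3 at 2.91, Dnase1l3 at 2.33 and Eng at 2.31. Cyyr1 was at position 32 of 35 in MHs, at 0.192 RPKM, and at position 1 in SHs. Stab2 moved from position 6 in MHs to 2 in SHs, at 0.321 RPKM, and Tie1 from 19 to 3, at 0.303 RPKM. Dnase1l3 moved the other way, from position 4 to 23, and Eng from 5 to 19. Spearman's rho between the RPKM values in MHs and SHs was 0.34 over the 35 genes. The genes share the same pair of libraries and many had few reads in SHs, so rho is a description only.

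The ratio was not one value for all members. The log2 ratio of the summed reads was -3.97, with an interval of -4.08 to -3.85. The interval of the gene lay wholly above it for 5 members, wholly below it for 14, and included it for 16. The 5 above were Cyyr1, Tie1, Nos3, F8 and Stab2. They held 13.5% of the summed reads of all members in MHs (exact 95% interval 12.5 to 14.6%) and 63.6% in SHs (59.9 to 67.2%). Cyyr1 alone had 0.677% of these reads in MHs and 27.3% in SHs (24.03 to 30.8%). Stab2 had 7.89% in MHs and 17.4% in SHs (14.6 to 20.5%). Tie1 had 1.82% in MHs and 9.21% in SHs (7.15 to 11.6%). Ptprb went from 9.86% to 4.39%, and Aqp1 from 8.38% to 2.49%. Over the 30 other members, which were left after these values had been seen, the summed level was 37.1-fold lower in SHs (32.6 to 42.4). Without Cyyr1 only, it was 21.3-fold lower (19.4 to 23.5), and 5 members, Tek in place of Cyyr1, were then above the summed ratio and 11 below it.

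**Figure D3:**
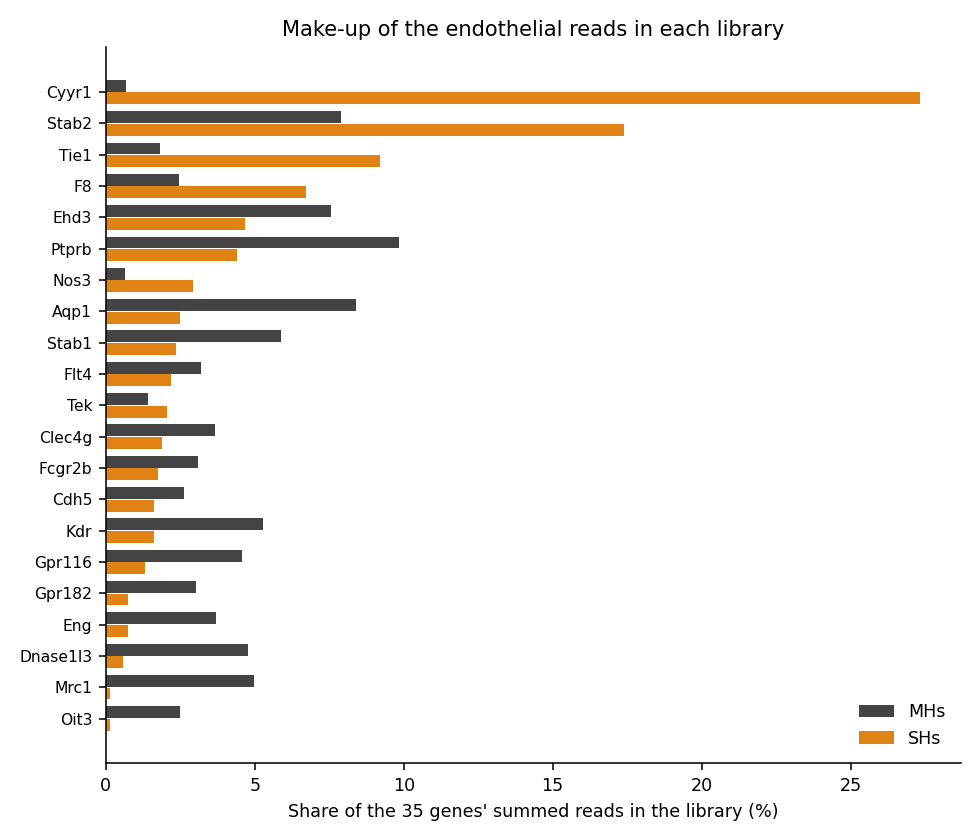
Share of the summed reads of the 35 genes that each gene had in MHs (dark bars) and SHs (orange bars), in percent, for the 21 genes with at least 2% in either library. Reads are not divided by exon length. In SHs, Cyyr1 has 27.3%, Stab2 17.4% and Tie1 9.21%, whereas in MHs the largest share is 9.86% for Ptprb.

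Sinusoidal and large-vessel genes were then compared. The 13 sinusoidal genes were Stab1, Stab2, Lyve1, Mrc1, Fcgr2b, Clec4g, Dnase1l3, Oit3, Gpr182, Flt4, Ehd3, F8 and Bmp2. They had 2132 reads in MHs against 265 in SHs, a summed log2 ratio of -4.33 (-4.52 to -4.14). The 4 large-vessel genes, Vwf, Plvap, Emcn and Sox17, had 92 reads in MHs against 10 in SHs, a summed log2 ratio of -4.52 (-5.63 to -3.58). The sinusoidal ratio was 1.14 times the large-vessel ratio, with an interval of 0.585 to 2.49. No difference between the classes was detectable at this depth, and the interval leaves room for one of over 2-fold. The direction changed with some of the other lists. With Nos3 and Sox18 added to the large-vessel genes, the sinusoidal ratio was 0.526 times the large-vessel ratio (0.343 to 0.829), and Nos3 gave 20 of the 30 large-vessel reads in SHs. Without Stab2 and F8, it was 0.545 times (0.272 to 1.21). With Kdr, Gpr116 and Aqp1 added to the sinusoidal genes, it was 0.954 times (0.489 to 2.08). Without Mrc1, Stab1, Fcgr2b and Bmp2, it was 1.43 times (0.728 to 3.12), in the direction of the full lists. The medians went the other way from the sums, with -5.02 for sinusoidal and -3.58 for large-vessel genes. They were -4.79 and -3.72 with genes of 3 or fewer SH reads set to 3 and no reads added to any count.

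The 18 genes shared by endothelia of all vessels had 2058 reads in MHs against 409 in SHs, a summed log2 ratio of -3.65 (-3.81 to -3.50). The sinusoidal ratio was 0.625 times this value (0.528 to 0.741). Without Cyyr1, it was 1.14 times (0.937 to 1.38), so this difference rested on Cyyr1.

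**Figure D4:**
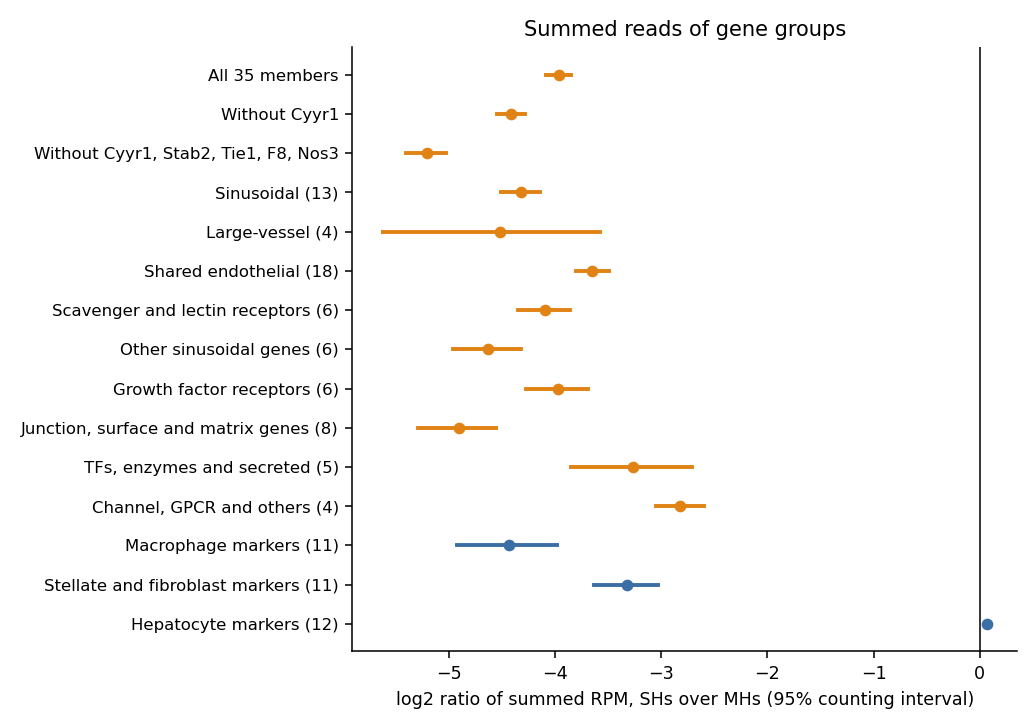
Log2 ratio of the summed RPM in SHs over MHs for groups of endothelial genes (orange) and for markers of other cells (blue), with the number of genes in parentheses and exact 95% counting intervals as lines. The interval of the large-vessel genes, -5.63 to -3.58, covers that of the sinusoidal genes, -4.52 to -4.14.

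Promoters of 20 members were present in the RefSeq table for GRCm38.p6, the assembly of mm10. The 250 bases before the start were searched on both strands for the ETS motifs CAGGAAG and CCGGAAG, which share the letters GGAAG, and for the GATA motif AGATAA. The motif CAGGAAG was found in 8 of 20 members (40.0%) and in 12.1% of 27025 genes. CCGGAAG was in 0 of 20 members and 7.83% of genes, and AGATAA in 0 of 20 and 11.4%. A match is a description of the letters and shows no binding. The 8 members were Cyyr1, Egfl7, Emcn, Gpr116, Mrc1, Robo4, Stab1 and Ushbp1, so the motif stood both before Mrc1, with 1 read in SHs, and before Cyyr1, which was higher in SHs. The promoters of those genes, Mrc1 (chr2:14229164-14229413, plus strand) and Cyyr1 (chr16:85550374-85550623, minus strand), and of Stab1 (chr14:31168642-31168891, minus strand) and Robo4 (chr9:37401722-37401971, plus strand) are shown from 5′ to 3′ with CAGGAAG or its reverse complement in capitals.
Mrc1: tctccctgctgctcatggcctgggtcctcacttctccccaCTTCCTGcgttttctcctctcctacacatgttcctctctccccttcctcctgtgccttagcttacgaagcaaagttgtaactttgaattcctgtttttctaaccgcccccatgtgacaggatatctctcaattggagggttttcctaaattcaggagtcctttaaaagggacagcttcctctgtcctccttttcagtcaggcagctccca
Stab1: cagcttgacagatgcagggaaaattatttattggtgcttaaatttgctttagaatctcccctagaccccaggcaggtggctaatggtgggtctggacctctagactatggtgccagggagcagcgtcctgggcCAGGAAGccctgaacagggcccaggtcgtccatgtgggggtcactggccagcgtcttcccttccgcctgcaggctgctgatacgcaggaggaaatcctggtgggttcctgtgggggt
Robo4: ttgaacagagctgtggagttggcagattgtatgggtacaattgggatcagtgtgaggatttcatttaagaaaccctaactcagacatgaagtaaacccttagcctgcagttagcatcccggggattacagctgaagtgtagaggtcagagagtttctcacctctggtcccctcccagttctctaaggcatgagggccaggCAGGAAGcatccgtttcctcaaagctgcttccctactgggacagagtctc
Cyyr1: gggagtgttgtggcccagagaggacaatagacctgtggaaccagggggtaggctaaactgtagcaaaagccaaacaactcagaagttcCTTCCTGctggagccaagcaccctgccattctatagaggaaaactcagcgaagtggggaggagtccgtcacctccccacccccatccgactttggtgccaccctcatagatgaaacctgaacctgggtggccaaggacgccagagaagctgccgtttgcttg

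Further genes of vascular biology, outside the 35, were read from lists by role. Of 75 genes, 54 reached 10 reads, of which 29 were lower by 2-fold or more, 1 was higher and 24 were neither. Among all genes with at least 10 reads, 4.46% were lower and 2% were higher by the same rule. Of those with no more than 457 reads, 8.12% were lower. The lists differed from one another. Of the 25 other pan-endothelial genes, 17 had at least 10 reads and 16 of these were lower. Calcrl, the receptor for adrenomedullin, had 56 reads in MHs against 0 in SHs, at least 46.6-fold lower against the floor and 36.6-fold at the near end of its interval. Cldn5, the claudin of endothelial junctions, had 45 and 1, and Gpihbp1, which holds lipoprotein lipase on capillaries, had 98 and 2. Calcrl, Cldn5 and Gpihbp1 were chosen after their values were seen. Of the 14 endothelial transcription factors, 10 had at least 10 reads, of which 1 was lower and 9 were neither. The 1 was Fli1, with 14 and 8 reads, and among the 9 were Sox7, with 18 and 43 reads and a ratio of -0.09, and Lyl1, with 6 and 29. These 3 factors were named after their values were seen. On the list of VEGF, angiopoietins and co-receptors 2 of 7 genes were lower, on the Notch list 2 of 6, and on the BMP list 1 of 7 was lower and 1 higher. All 7 genes with at least 10 reads among 10 zonal and angiocrine genes were lower. On this list and the pan-endothelial list, many genes reached the minimum through MHs, such as Cdh13 and Myct1, with 10 and 0 reads each. The minimum thus favoured genes with reads in MHs. Of the 7, Ltbp4 had 105 and 5 reads and Adam23 had 75 and 10, both named after their values were seen. The endothelial ligands of the pericentral Wnt signal had hardly any reads. Wnt2 had 4 in MHs against 2 in SHs, Wnt9b had 0 and 3, and Rspo3 had 8 and 0. These 3 were also named after their values were seen.

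Most genes on the same lists with many reads differed by less than 2-fold. The 15 genes with 200 or more reads in total had a median log2 ratio of -0.06, and 1 of them was at least 2-fold lower. This was Cd36, a fatty acid transporter, with 181 reads in MHs against 117 in SHs, for a log2 ratio of -1.95 (-2.30 to -1.60). The ligand Vegfa, which hepatocytes make, had 137 RPM in MHs against 132 in SHs, with an interval of -0.12 to 0.02. Nrp1, a VEGF co-receptor, had a log2 ratio of -0.81 (-0.93 to -0.68). The homeobox genes Prox1 and Hhex, which act in hepatocytes too, had ratios of -0.06 and -0.01, and Gata4 and Maf had -0.02 and 0.05. From which cells the reads of these genes came was not tested, for Gata4 and Maf as for the others. S1pr1, a receptor for sphingosine 1-phosphate, had 84.3 RPM in MHs against 70.6 in SHs. Other genes with many reads were Id3, Smad7 and Dll1, with ratios from -0.22 to 0.09, and Bmpr2, Notch1 and Angptl4, with -0.44, -0.49 and -0.37. Of the genes with fewer than 200 reads in total, 39 had at least 10, and 28 of these were lower by 2-fold or more. Among all genes with at least 10 reads, 4.46% were lower. Nrp2, with 87 reads in MHs against 53 in SHs, had a log2 ratio of -2.03 (-2.55 to -1.52). Bmp6, the partner of Bmp2 in iron sensing, was the 1 gene that was higher in SHs. It had 1.06 RPM in MHs against 2.95 in SHs, for a log2 ratio of 1.44 (0.76 to 2.28). Jag1 had a ratio of -0.63, Id1 one of -0.58 and Vegfb one of 0.27.

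**Figure D5:**
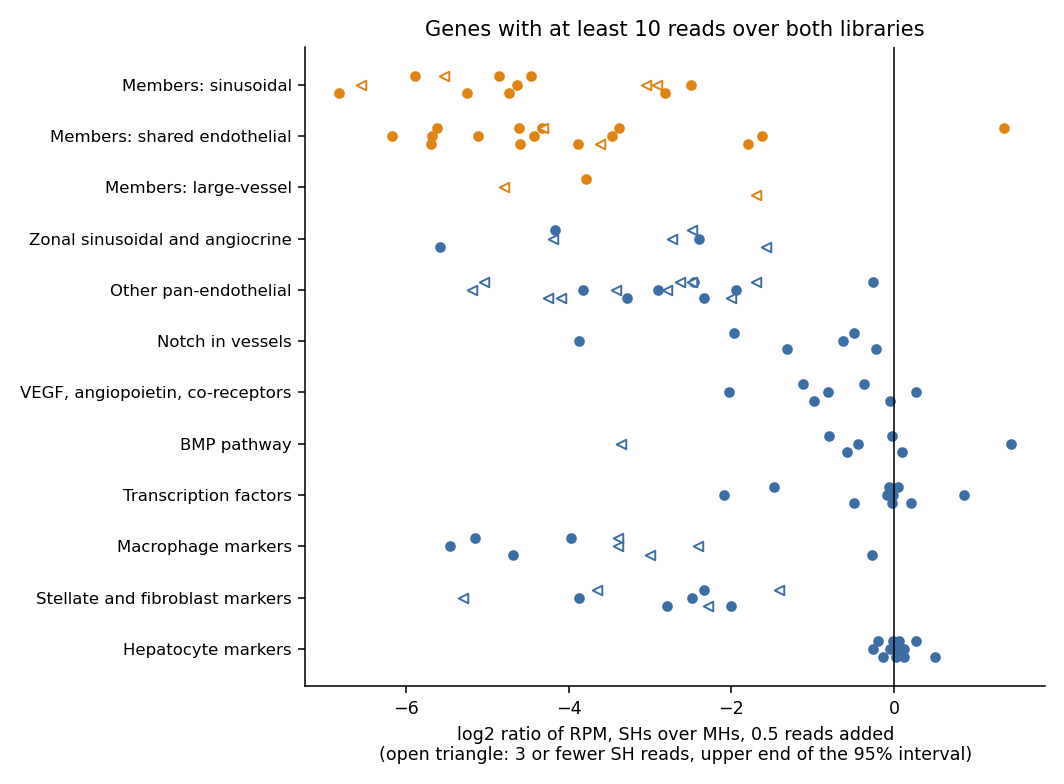
Log2 ratio of RPM in SHs over MHs for single genes with 10 or more reads in total, with members of the endothelial list in orange and other genes in blue. Open triangles mark the upper end of the 95% interval of genes with 3 or fewer reads in SHs. The 12 hepatocyte markers lie between -0.25 and 0.50, and the members, apart from Cyyr1, lie under -1.

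Markers of macrophages and of stellate cells and fibroblasts were lower along with the endothelial genes. Only SHs were sorted, against CD45 as well as CD31, and for these markers too the sort cannot be told apart from the fraction. The 11 macrophage markers had 383 reads in MHs against 44 in SHs, which were 22.6 and 1.04 RPM. Of the 9 with 10 or more reads, 8 were lower by 2-fold or more, against 4.46% of all genes with as many reads. Clec4f, the lectin of Kupffer cells, had 92 reads in MHs against 6 in SHs, whereas Cd68 had 7 and 15. The 11 stellate and fibroblast markers had 27.2 RPM in MHs against 2.72 in SHs, and all 9 with at least 10 reads were lower. Of these, Reln had 130 and 64 reads. Col1a1, with 1 and 6 and so under the minimum, had the highest ratio of the list. The 8 cholangiocyte markers had 13.9 RPM in MHs against 14.4 in SHs, with Krt19 and Krt7 at 1 read in each library. Most of these reads were of Spp1, with 136 and 271 reads, and Sox9. The 13 leukocyte markers had 10 reads in MHs against 12 in SHs, of which Ptprc had 9 and 5 and S100a9 had 0 and 4. The 5 platelet markers had 21 and 52 reads, nearly all of Itga2b, with Pf4 at 0 in both, and Gp1ba had 0 and 1. Of the 5 erythrocyte markers, Alas2 had 2008 and 5784 reads, Hba-a1 had 0 and 9, and the others had 6 or fewer in either library. Of the sorting markers, Epcam had 6 reads in MHs against 1 in SHs, and Icam1 had 130 and 276, a log2 ratio of -0.24 (-0.54 to 0.08). Macrophages also express Mrc1, Stab1 and Fcgr2b, cholangiocytes Aqp1, and stellate cells Eng and Bmp2. Without these 6 members, the summed log2 ratio of the other 29 was -3.63. The part of other cell types in the reads of these 6 genes was not tested.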

How the data were processed

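Poly(A) RNA from 1 sample of MHs and 1 sample of SHs was read on an Ion Proton instrument. The authors deposited whole read counts per gene symbol, without normalization. Their methods describe trimming and mapping in CLC Genomics Workbench and RPKM values, and the labels name mm10. The program and annotation behind the deposited counts, and whether strand was used, are not given in the sources used here, so reads of overlapping genes are uncertain. Counts were divided by the library total (RPM) and, between genes, by merged exon length of GENCODE M21 (RPKM), where Gpr116 was found as Adgrf5. Overlaps came from the same annotation. Exact 95% intervals were Clopper-Pearson intervals of the SH share of a gene's reads, or conditional intervals of an odds ratio for ratios between gene groups. They cover counting error only. A gene was called at least 2-fold lower or higher when its log2 ratio, with 0.5 reads added, was at or past -1 or 1, its interval lay on that side of 0 and it had at least 10 reads over both libraries. No test was made. Python 3.11.15, numpy 2.4.6, pandas 2.3.3 and scipy 1.17.1 were used, and R 4.3.3 with edgeR 4.0.16 and DESeq2 1.42.0 for other scalings only. The calculation was tested on simulated counts. All 35 members were named, and of the further vascular genes those with at least 50 reads in either library, up to 20 in order of total reads. Further vascular genes outside this rule were named after their values were seen. Sorting markers were named, as were, of each cell type list, the gene with the most reads in MHs and that with the highest ratio, except that 2 genes under these rules are not reported here. Of the erythrocyte markers, 5 were analysed. Members and lists were chosen with earlier results of these data known.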

Additional observations from a re-analysis of the deposited data

How the results depend on the processing

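No paired analysis was possible because each fraction had a single library. Scaling by edgeR's TMM, by DESeq2's size factors or without the 10 genes with the most reads shifted every log2 ratio by 0.01, 0.01 and 0.03, and none of the 150 values of single members under other settings reversed or left its interval. Under these scalings, 32 members were at least 2-fold lower and 1 higher. With a minimum of 100 reads, which 19 members reached, 18 of the 19 were lower, so the count fell because fewer genes were eligible. The summed log2 ratio, -3.97, was -3.78 without the 5 members with the most reads in MHs, -3.63 without those that other cell types share and, as alternatives chosen after seeing the data, -4.42 without Cyyr1, -5.21 without Cyyr1, Stab2, Tie1, F8 and Nos3, and -4.65 without the 10 members whose exons overlap another gene. The log2 of the sinusoidal over the large-vessel ratio, 0.19, was -0.93 with Nos3 and Sox18 added to the large-vessel genes, -0.07 with Kdr, Gpr116 and Aqp1 added to the sinusoidal genes, 0.51 without Mrc1, Stab1, Fcgr2b and Bmp2, and -0.88 without Stab2 and F8, chosen after seeing the data. The 10 large-vessel reads in SHs limit that comparison. These sums differ from the reported values only in the genes entered, and beyond that the cause was not tested.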

Other observations

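Of the 9929 genes with at least 50 reads in MHs, 13 members and 22 other genes had a log2 ratio at or under the median of the members. The 22 were found by this value, which is a description with no test, and no group is read from them. On the lists of further vascular genes or of cell type markers stood 7 of them, and 15 stood on no list. The 15 are given with their reads in MHs and then in SHs. Pcdh12 had 54 and 0, Clec14a had 70 and 1 and Cd300lg had 90 and 2 reads. Pcdh12 is a protocadherin, Clec14a a C-type lectin and Cd300lg an immunoglobulin-like receptor. Sparc had 65 and 2, Cd97 had 53 and 2, Arap3 had 52 and 2 and Igfbp7 had 156 and 9. Amotl1 had 53 and 3, Col14a1 had 96 and 6, Ntn4 had 78 and 5 and Plxnd1 had 126 and 10. Plxnd1, a semaphorin receptor, had a log2 ratio of -4.91 (-6.07 to -4.05). Cd55 had 53 and 4, Slc43a3 had 50 and 4, Rgl1 had 61 and 5 and Tmsb4x had 161 and 14.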
